A study of Rattus norvegicus with 6 samples.

Results

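The miRNAs best known from red blood cells include miR-451, miR-144 and miR-486, and these 3 were looked for in the left ventricle of diabetic and non-diabetic rats. They were chosen by name, by removing the species prefix and the assay number from each row of the qPCR table and leaving out passenger-strand (*) assays. Of the 3 names, 2 had an assay among 584 miRNA assays, miR-451 and miR-486, each with 1 well on card A, the first of the 2 blocks of wells in the table. miR-144 is not analysed here. The samples were left ventricular tissue of 3 LETO rats, labelled healthy controls, and 3 OLETF rats, labelled diabetic. OLETF is an inbred strain that overeats and develops obesity and type 2 diabetes, and LETO is its lean counterpart, so strain, obesity and diabetes cannot be told apart. The labels give no age or sex, call the material heart tissue in one field and cardiac cells in another, and do not say that replicates came from separate litters or days, so p-values measure only the spread between these 6 samples. Hearts were taken from anaesthetised, ventilated rats and frozen, and the sources used here do not say whether blood was flushed from them. Values listed by group below follow replicates 1, 2 and 3.

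miR-451 and miR-144 are cut from one primary transcript of a locus that the transcription factor GATA1 switches on as red cells mature. miR-451 is unusual in that Argonaute 2 cuts it from a short hairpin without Dicer, and it is among the most abundant miRNAs of the mature red cell. miR-486 lies in an intron of Ank1, the gene of the membrane skeleton protein ankyrin 1. It is made in red-cell precursors and also in heart and skeletal muscle, where it is counted among the muscle-enriched miRNAs. A heart can thus hold miR-486 from its own muscle as well as from blood, and miR-451, although also studied in heart muscle cells, is the more typical of red cells.

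The locus and the guide strands are shown because detection of miR-451 is the main reading below. Sequences are RNA from RefSeq (assembly GRCr8), for which 9 of 10 names searched matched. The hairpins of Mir144, at chr10:63459397-63459479, and Mir451a, at chr10:63459569-63459640, lie on the plus strand with 89 bases between them, and capitals mark the mature strand. The mature strand of miR-451 runs from base 17 to base 38 of its hairpin and so reaches into the loop.
Mir144 hairpin: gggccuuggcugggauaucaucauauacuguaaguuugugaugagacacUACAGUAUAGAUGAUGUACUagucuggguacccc
Mir451a hairpin: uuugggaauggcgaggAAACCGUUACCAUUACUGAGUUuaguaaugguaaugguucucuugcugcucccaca

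The mature strands of 8 of the 9 red-cell list miRNAs, all but miR-486, follow, with the seed (bases 2 to 8, which pair with target mRNAs) in capitals. miR-16 and miR-15b shared 1 seed, and miR-92a, miR-25 and miR-363 shared another, while miR-451, miR-144 and miR-93 each had a seed of their own.
miR-451-5p: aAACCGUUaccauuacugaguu
miR-144-3p: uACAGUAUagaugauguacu
miR-16-5p: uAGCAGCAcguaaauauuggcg
miR-15b-5p: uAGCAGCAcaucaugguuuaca
miR-92a-3p: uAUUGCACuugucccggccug
miR-25-3p: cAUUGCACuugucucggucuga
miR-363-3p: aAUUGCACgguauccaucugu
miR-93-5p: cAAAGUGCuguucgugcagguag

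Values are threshold cycles (Ct), the PCR cycle at which a well crosses the detection threshold. Within an assay, an earlier cycle means more RNA. A Ct under 35 counts as measured. LETO replicate 3 stood apart from the other samples. It measured 292 assays against 197 to 228 in the others, and its median Ct over the 162 assays measured in all samples was 26.7, against 28.3 in OLETF replicate 3 and 29.3 to 29.9 in the other 4. The U6 small nuclear RNA, the labelled endogenous control, ran between 17.5 (LETO replicate 2) and 19.2 cycles (LETO replicate 1) on card A. Heart muscle markers were present in every sample, with miR-133a the earliest miRNA assay of card A in all 6.

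miR-451 was close to or beyond the end of the assay's range in these hearts. Its well was undetermined in LETO replicate 1 and in all 3 OLETF samples. In LETO replicate 2 it crossed the threshold at 39.0 cycles, past the limit, and in LETO replicate 3 at 33.7 cycles. Only 1 of the 6 hearts therefore measured it, a LETO heart, and that heart was also the one with the most assays measured. Of all 584 assays, 50 (8.56%) were measured in LETO replicate 3 only, miR-451 among them. With measured values in 1 sample, miR-451 did not enter the comparison of the groups and was not tested. No sample of known red-cell RNA was run, so how little miR-451 this well could detect was not tested.

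miR-486 crossed the threshold early in the same samples. The LETO hearts crossed the threshold at 23.9, 23.8 and 22.7 cycles and the OLETF hearts at 23.1, 22.95 and 22.8. The 3 OLETF hearts lay within the range of the LETO hearts, and LETO replicate 3 was the earliest of all 6 by a small margin over OLETF replicate 3. By Ct it ranked between 9 and 15 among the measured miRNA assays of card A in 5 samples, and 22 of 202 in LETO replicate 3. In the same ranking miR-126-3p, an endothelial miRNA, came second in every sample.

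The gap between the pair was wide in every heart. miR-451 crossed the threshold 11.01 cycles after miR-486 in LETO replicate 3 and 15.2 cycles after it in LETO replicate 2. With an undetermined well counted as 40 cycles, the gap was at least 16.1 cycles in LETO replicate 1 and at least 16.9, 17.05 and 17.2 in the OLETF hearts. Assays can differ in efficiency, so a gap in cycles is not a ratio of molecules. miR-486 ran early also in the 4 hearts in which miR-451 did not amplify. Whether miR-486 came from muscle or from blood was not tested. Each sample had 1 miR-451 well, and no sample of known red-cell RNA was run.

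In plasma, the delay between miR-23a, whose level changes little when red cells burst, and miR-451 serves as a gauge of released red-cell RNA, because miR-451 then comes up much earlier than miR-23a. In these hearts the order was the opposite. miR-451 came 1.74 cycles after miR-23a in LETO replicate 3, 5.62 after it in LETO replicate 2, and at least 5.02 to 6.97 after it in the other 4, although miR-23a itself was late (31.99 to 34.98 cycles). The gauge was made for plasma and no limit of it is applied to tissue here. With both wells late, the red-cell content of these hearts was not tested by this order.

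**Figure D1:**
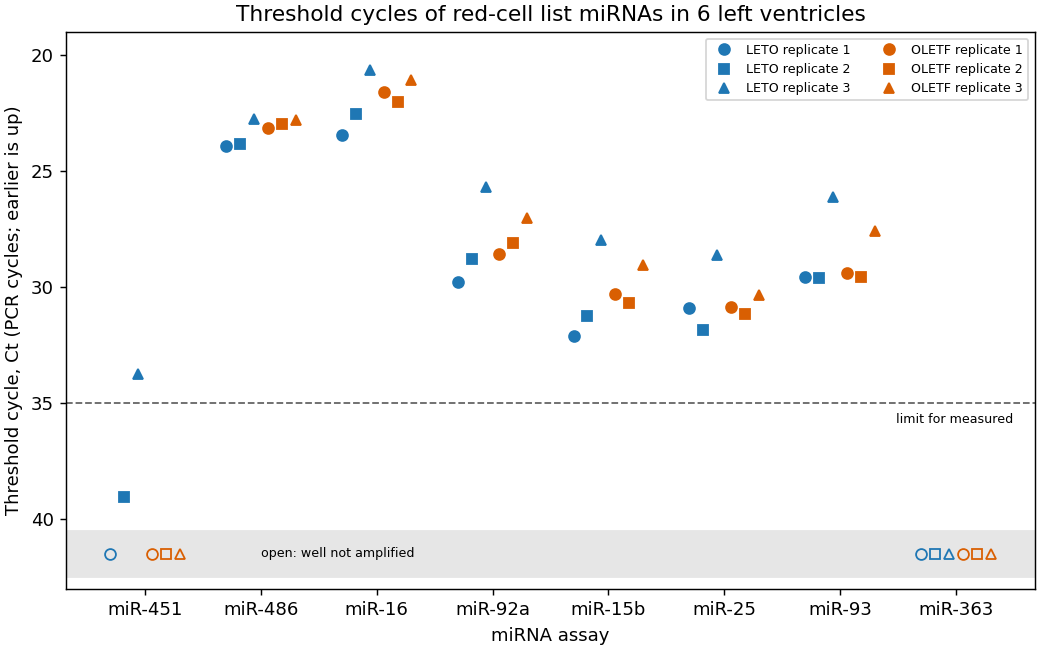
Threshold cycle (vertical axis, PCR cycles, with earlier cycles at the top) of the 8 red-cell list assays, 1 point per sample, with colour for group and shape for replicate; open points in the grey band are wells that did not amplify and the dashed line is the limit of 35. miR-486 sits between 22.7 and 23.9 in all 6 hearts, whereas miR-451 has 1 point above the limit line, 1 below it at 39.0 and 4 wells not amplified.

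The authors' deposited table gave an OLETF over LETO ratio of 0.158 for miR-451. That value counts the undetermined wells as 40 cycles: relative to U6, miR-451 then stood at -20.80, -21.59 and -15.84 log2 units in LETO hearts and at -22.36, -22.06 and -21.78 in OLETF hearts. All 3 OLETF values, and that of LETO replicate 1, are U6 alone set against a fixed 40. The difference of -2.66 log2 units came mostly from LETO replicate 3. Without that sample it was -0.87, and the ratio computed from the deposited delta Ct values was 0.545. The authors' deposited table gave 1.20 for miR-486, for which every well was determined.

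Relative to U6, miR-486 did not differ between the groups beyond the spread of the samples. Its level, minus the difference between its Ct and that of U6 on the same card (1 log2 unit per cycle), was -4.69, -6.37 and -4.83 for LETO. For OLETF it was -5.51, -5.01 and -4.57. LETO replicate 2 was the lowest sample and OLETF replicate 3 the highest, and the groups overlapped. The LETO mean was -5.30 ± 0.93 and the OLETF mean -5.03 ± 0.47 (SD over 3 samples), a difference of 0.27 (SE 1.38, limma adjusted p = 0.997; higher in 5 of 9 pairs of samples). The exact permutation test gave p = 0.8 (two-sided; 0.9 adjusted over 3 such tests), where 3 against 3 samples allow no p below 0.1. Of all 193 assays tested, 0 (0%) passed an adjusted p of 0.05 with limma, 2 had an unadjusted limma p under 0.05, and 1 had an unadjusted p under 0.05 when each assay used its own spread alone. With U6, limma gave every assay with 6 values the same SE, whereas the SE from the spread of miR-486 alone was 0.601. In a bulk sample, fewer cells of a type and less RNA per cell cannot be told apart.

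The direction of this small difference was set by single samples. Without LETO replicate 2, the sample with the earliest U6, the difference relative to U6 was -0.27, and with any other sample left out it lay between 0.038 (without OLETF replicate 3) and 0.57 (without LETO replicate 1). Relative to the median of the assays on its card, miR-486 lay at 6.13, 5.69 and 3.78 log2 units for LETO and at 5.78, 6.05 and 5.17 for OLETF. Here LETO replicate 3 was the lowest by far and the other 5 samples lay together. The difference was 0.47 (SE 0.622, limma adjusted p = 0.773), and with 1 sample left out it was -0.24 without LETO replicate 3, 0.99 without LETO replicate 1, 0.83 without LETO replicate 2 and 0.31 without OLETF replicate 2. With the whole-array median it was 0.75 (SE 0.610, limma adjusted p = 0.668; higher in 7 of 9 pairs). With quantile normalization it was 0.76 (SE 0.411, limma adjusted p = 0.853), and only there were all 3 OLETF samples above all 3 LETO samples. By that rule 5.56% of 162 assays lay higher in OLETF with quantile normalization.

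**Figure D2:**
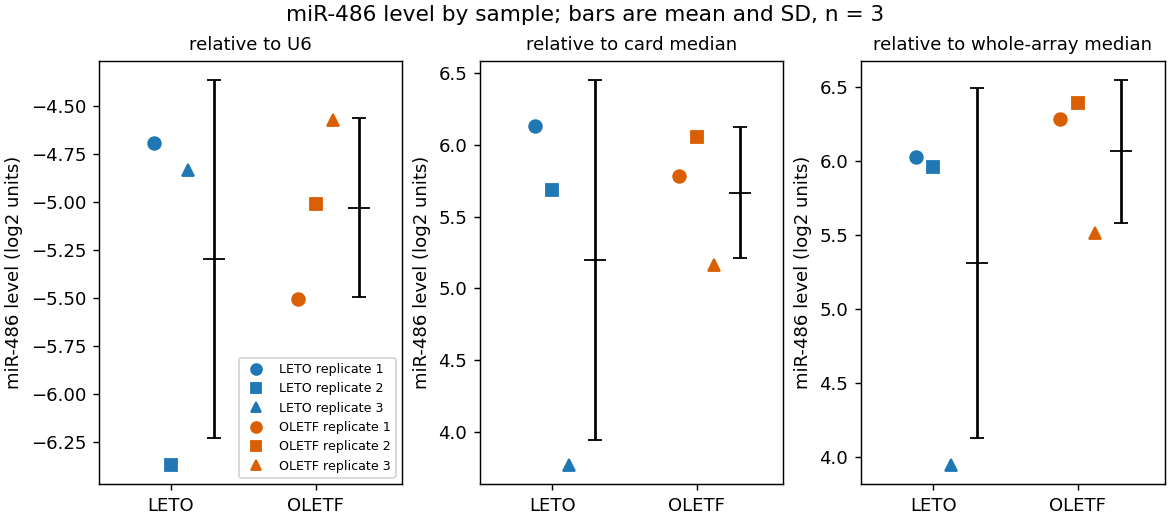
Level of miR-486 (vertical axes, log2 units, each panel on its own scale) in 3 LETO and 3 OLETF samples relative to U6, to the card median and to the whole-array median, with points for samples and bars for the mean and SD. The low LETO sample is replicate 2 (-6.37) relative to U6 and replicate 3 (3.78) relative to the card median, and the groups overlap in all panels.

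miR-486 varied less between hearts in raw cycles than most assays. Its Ct had an SD of 0.517 over the 6 samples, the fifth smallest of the 162 assays measured in all, whose median SD was 1.38. From the mean of LETO replicates 1 and 2 to replicate 3, the Ct of miR-486 moved by -1.14 cycles while the median assay moved by -3.06. Its low place in LETO replicate 3 relative to the card median follows by construction from such a smaller move. The -3.06 is taken over assays of both cards, so it is not the move of the card A median itself. miR-133a, the earliest muscle assay here, had a like small SD (0.452) and moved by -1.06 in that sample. The other muscle assays measured in all samples had SDs of 0.959 (miR-208) to 1.46 (miR-133b). They moved by -0.92 (mouse miR-1) to -3.55 (miR-133b). miR-150, a lymphocyte miRNA, had an SD of 0.602, whereas miR-142-3p, also of the leukocyte list, had 1.70. miR-16 had an SD of 1.02 and moved by -2.36. The remaining red-cell list assays measured in all samples, apart from miR-486, had SDs of 1.10 (miR-25) to 1.51 (miR-15b).

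Other miRNAs that red cells carry in quantity were measured along with miR-486, but none of them is particular to red cells. The red-cell list held 9 names, miR-451, miR-144 and miR-486 among them, with 8 assays. Of these, 6 were measured in all samples and tested, and miR-363 did not amplify in any. Relative to U6, 3 of the 6 lay higher in OLETF and 3 lower, 0 passed, and their median difference was 0.049, beside a median of -0.60 over all 193 assays, of which 19.2% lay higher. Relative to the card median 4 of 6 lay higher (median 0.25; all assays -0.31, 32.6% higher), and with the whole-array median again 4 of 6 (median 0.54; all assays -0.18, 37.8% higher). The groups overlapped for all 6 with U6 and with both median references. Over 162 assays, 4.32% lay higher in every OLETF sample relative to the card median, so a count of 0 among 6 is near that share.

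miR-16, which restrains the cell cycle and is abundant in red cells as in most tissues, crossed the threshold at 23.4, 22.5 and 20.6 cycles in LETO hearts and at 21.6, 22.01 and 21.1 in OLETF hearts. LETO replicate 3 was the earliest and LETO replicate 1 the latest, with OLETF between them. Relative to the card median its difference was 0.60 (SE 0.411, limma adjusted p = 0.634), and relative to U6 it was 0.40 (SE 1.38, limma adjusted p = 0.997). miR-15b, cut from the same transcript as a miR-16 copy, differed by 0.36 relative to the card median and miR-92a, of the miR-17-92 cluster, by 0.14. miR-25 and miR-93, which share a host gene, Mcm7, differed by -0.40 and -0.47. None of these passed (smallest limma adjusted p on the list 0.634 relative to the card median and 0.487 with the whole-array median).

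The 6 tested miRNAs of the list thus held both directions. The mean level of the 6 relative to the card median was 1.75, 1.55 and 1.22 for LETO and 1.62, 1.595 and 1.65 for OLETF. LETO replicate 3 was the lowest of the 6 hearts on this measure, which includes miR-486. Over the other 5 miRNAs LETO replicate 3 stood at 0.705 and OLETF replicate 2 at 0.704, the lowest, with the remaining hearts between 0.727 and 0.951.

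miR-486 was next set against the muscle miRNAs of the same hearts, and no difference between the groups passed a test. The muscle list held 7 names with 8 assays, since miR-1 had a mouse and a rat assay. All 8 were tested, and 0 passed relative to U6, the card median or the whole-array median. All 8 lay lower in OLETF relative to U6 (median -0.64), where 80.8% of all 193 assays lay lower (median -0.60). All 8 also lay lower relative to the card median (median -0.44), where 67.4% of all assays did (median -0.31). With the whole-array median 5 lay lower and 3 higher, and 62.2% of all assays lay lower. miR-1, which acts on cardiac conduction genes, differed by -0.75 with the rat assay and -1.31 with the mouse assay relative to U6. miR-133a, made from the same transcript, differed by -0.43 and miR-133b by -0.54. The myosin-gene miRNAs miR-208, miR-208b and miR-499 differed by -0.27, -0.34 and -1.10, and miR-206, typical of skeletal muscle, by -1.27 from 3 LETO and 2 OLETF samples. Relative to the card median, rat miR-1 and miR-499 lay lower in every OLETF than in every LETO sample, as did 9.26% of 162 assays. This depended on the reference. With U6 the groups overlapped for both, and with the whole-array median they overlapped for rat miR-1 but not for miR-499.

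The Ct of miR-486 minus the mean Ct of the 7 muscle assays measured in all samples needs no reference RNA. For LETO it was -2.55, -2.27 and -1.18 cycles, and for OLETF -2.97, -3.50 and -2.37. The OLETF values were lower in 8 of 9 pairs, and the groups overlapped only between OLETF replicate 3 and LETO replicate 1. The means were -2.002 ± 0.724 and -2.95 ± 0.565 (SD, n = 3 each), a difference of -0.95 (exact permutation p = 0.2, two-sided; 0.6 adjusted over 3 tests). It ran from -1.23 to -0.53 with 1 sample left out, the smallest being without LETO replicate 3. In levels, the difference of miR-486 also stood above the median difference of all 193 assays. It did so by 0.87 log2 units with U6 and 0.78 with the card median. The gap was thus not particular to the muscle list. The Ct measure does not remove shifts that differ between assays. Against the mean of LETO replicates 1 and 2, miR-486 moved by -1.14 cycles in LETO replicate 3. The 7 muscle assays moved there by -0.92 (mouse miR-1) to -3.55 (miR-133b).

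The same was done with miR-16, the other early assay of the red-cell list. The Ct of miR-486 minus that of miR-16 was 0.46, 1.32 and 2.11 cycles for LETO and 1.59, 0.94 and 1.74 for OLETF. All OLETF values lay inside the LETO range. The means were 1.30 ± 0.825 and 1.42 ± 0.425 (SD, n = 3 each), a difference of 0.13 (exact permutation p = 0.9, two-sided; 0.9 adjusted over 3 tests). Without LETO replicate 1 it was -0.29, and without OLETF replicate 3 it was -0.031.

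**Figure D3:**
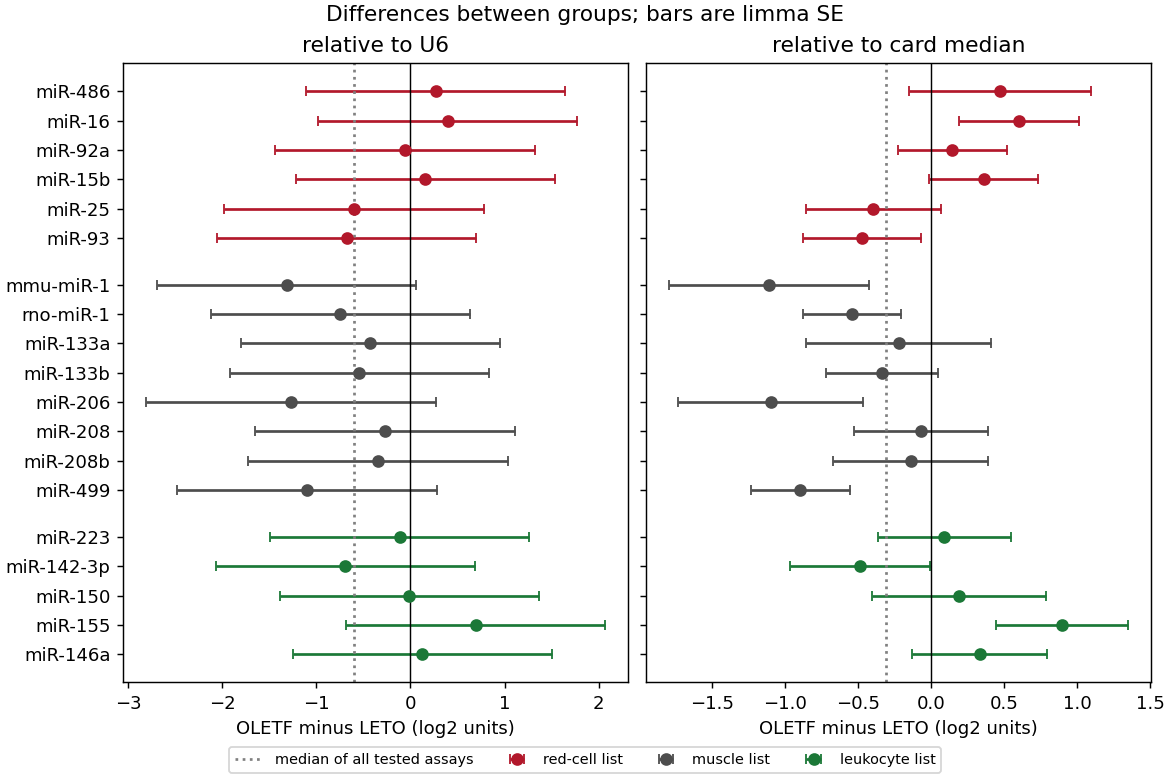
Difference between OLETF and LETO (horizontal axes, log2 units, each panel on its own scale) for the tested assays of the red-cell, muscle and leukocyte lists, relative to U6 on the left and to the card median on the right; points are fitted differences, bars the limma SE, and the dotted line the median of all tested assays. miR-486 (0.27 and 0.47) and miR-16 (0.40 and 0.60) lie right of 0 in both panels and all 8 muscle assays lie left of 0 (5 of 8 with the whole-array median, not drawn), while no assay passed the test.

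Leukocyte list miRNAs, which blood cells and cells resident in the heart can both hold, were measured too. Of this list, 5 of 6 assays were measured in all samples, led by miR-150 (Ct 20.7 to 22.5), a miRNA of mature lymphocytes, and miR-146a (21.4 to 23.4), which dampens innate immune signalling. miR-223, a granulocyte and platelet miRNA, ran from 24.6 to 26.6. Relative to U6, 2 of the 5 lay higher in OLETF and 3 lower, with a median of -0.012; relative to the card median 4 of 5 lay higher, with a median of 0.19, and 0 passed. Over all assays 19.2% and 32.6% lay higher with these references. miR-142-5p, not tested, was measured in 1 LETO and 2 OLETF samples. Their part in the level of miR-486 was not tested, nor was that of endothelium, whose miR-126-3p and miR-126-5p differed by -0.062 and -0.76 relative to U6.

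A list of 6 miRNAs that fall during, or hold back, red-cell maturation was measured for comparison. miR-24, which represses an activin receptor, was its earliest assay (Ct 19.3 to 22.5), together with miR-150. The list shares miR-223, miR-150 and miR-155 with the leukocyte list. Of its 5 tested assays, 2 lay higher in OLETF relative to U6 (median -0.012; 19.2% of all assays higher) and 5 relative to the card median (median 0.19; 32.6% higher), and 0 passed. miR-222, which represses the Kit receptor, ran from 24.2 to 26.8 cycles. Its cluster partner miR-221 was measured in LETO replicate 3 only, as was miR-451.

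The assays most like miR-486 across the 6 hearts were found from the root-mean-square difference between levels relative to the card median, each assay centred on its own mean. The 5 nearest of 161 were miR-574-3p (0.198 log2 units), miR-320 (0.216), miR-146b (0.277), miR-484 (0.278) and miR-191 (0.287), against a median of 1.03 over all. Each was lowest in LETO replicate 3. Of the named lists, miR-150 ranked 7, miR-146a 8, miR-223 10 and miR-133a 12. miR-155 ranked 16, whereas miR-142-3p, the remaining leukocyte assay measured in all samples, ranked 122. miR-16, the nearest of the red-cell list, ranked 22. The other red-cell list members ranked from 49 (miR-25) to 90 (miR-93), and the other muscle assays from 29 (miR-208) to 86 (miR-499). As all samples share this card layout and LETO replicate 3 dominates the distances, the order describes these 6 hearts and was not tested.

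**Figure D4:**
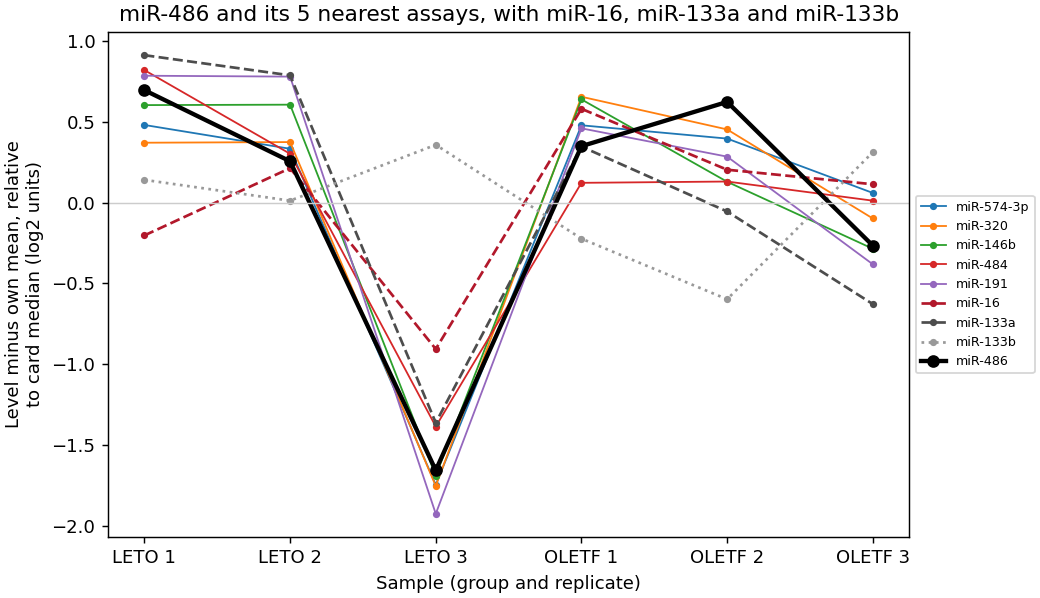
Level relative to the card median minus the mean of each assay (vertical axis, log2 units) in the 6 samples, for miR-486 (thick line), its 5 nearest assays and, broken lines, miR-16, miR-133a and miR-133b. miR-486 and the 5 nearest drop to their lowest value in LETO replicate 3 (-1.66 for miR-486), miR-133a drops there too, and miR-133b does not.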

How the data were processed

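MicroRNAs were measured by stem-loop RT-qPCR on TaqMan rodent cards in 6 ventricles, per the labels' protocols and the series' design text, although the labels name SYBR Green as the dye. The deposited Ct per well, with undetermined wells marked, is a cycle number; instrument thresholds are not given in the sources used here. The authors' second table holds delta Ct, a log2 quantity with reversed sign, which differed from Ct minus mean U6 of the same card, with 40 for undetermined assays, by no more than 3.75e-06 (3504 values compared). Another deposited table holds linear ratios of OLETF over LETO.

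Determined wells of an assay were averaged. Assays with Ct under 35 in at least 2 of 3 samples per group (193) were compared in limma 3.58.1 (R 4.3.3, lmFit, eBayes, Benjamini-Hochberg). The fit was checked on simulated data with independent noise and without shifts shared by a whole sample. That check does not show which changes could be found in these hearts. Precision is limited by 1 well per member and 3 samples per group. Named miRNAs were the members, the measured red-cell and muscle lists, the 5 nearest assays, miR-23a and U6. From 3 other lists, the 2 earliest assays were named (others added after their values were seen). The members and lists were chosen with earlier results of these data known. Same-numbered replicates were not treated as pairs in the main fit. The correlation of their deviations from the group means was -0.088, 0.23 and 0.62 for replicates 1, 2 and 3 (162 assays). LETO and OLETF replicate 3, the most alike, were also the samples with the most assays measured (292 and 228). Whether they share a batch was not tested.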

Additional observations from a re-analysis of the deposited data

How the results depend on the processing

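miR-486 was not called in any of 29 alternatives (limma adjusted p 0.571 to 1.00), and its difference was above 0 in 25 of them. It was below 0 with array weights (-0.36, where LETO replicate 1 weighed 3.02 and replicates 2 and 3 weighed 0.329 and 0.237), relative to U6 without LETO replicate 2, and relative to the card median without LETO replicate 3 (-0.24) or with replicates 1 and 2 only (-0.039). With 1 sample left out it ran from -0.27 to 0.57 relative to U6 and from -0.24 to 0.99 relative to the card median, and the highest value, 1.12, came when the reference was the remaining small RNA controls; the cause was not tested. The count of assays past adjusted p 0.05 was 0 in 26 alternatives, 30 with array weights, and 1 each with the replicate block and with replicate 3 as a term; the replicate block left miR-486 at 0.27 and changed no other call. The Ct difference between miR-486 and miR-16 ran from -0.29 to 0.53 with 1 sample left out. miR-451 was measured in 0 samples with a Ct limit of 32, by construction, and in 2 without a limit. With undetermined wells at 40 its difference was -2.17, -2.46 and -1.81 with the whole-array median, card median and other controls. The replicates 1 and 2 subset, U6 pooled over both cards (0.38 for miR-486) and raw Ct for miR-451 (-2.41) were chosen after seeing the data. Quantile normalization was not run for miR-451, Ct limits gave it no difference, gaps to miR-451 per sample have no sample to leave out, and nothing was run for miR-144.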
